A study of Mus musculus with 24 samples.

Results

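The genes described here are 10 endoplasmic reticulum (ER) chaperones and unfolded protein response genes of the mouse heart, Hspa5, Hsp90b1, Dnajb9, Dnajc3, Sdf2l1, Creld2, Herpud1, Xbp1, Pdia4 and Calr. They were chosen by name, with earlier results of these data known, as 10 of the 46078 genes in the count table. All 10 passed the filter on low counts. RNA from the ventricular apex of 24 male C57BL/6 mice aged 10 weeks was sequenced in 4 groups of 6 on day 5. DTR_PBS mice had a diphtheria toxin-mediated heart injury and received the vehicle PBS. DTR_PYR mice had the same injury and received pyridostigmine (PYR), a cholinesterase inhibitor. WT_PYR mice were wild type without toxin and received PYR, and WT_PBS mice were wild type without toxin and received PBS. Genotype and toxin changed together, so they cannot be told apart, and the labels do not name the cells that carry the toxin receptor.

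The ER is where secreted and membrane proteins fold. When unfolded proteins build up there, the membrane sensors IRE1, ATF6 and PERK raise the production of chaperones, folding enzymes and degradation factors, slow protein synthesis and, if the load persists, favour cell death. In the heart the ER is continuous with the calcium store of the cardiomyocyte, and several of its chaperones bind calcium. Hspa5 (BiP) and Hsp90b1 (GRP94) are general chaperones, and Calr binds sugar chains on folding proteins. Dnajb9, Dnajc3 and Sdf2l1 work with Hspa5, Pdia4 forms and rearranges disulfide bonds, Creld2 is a stress-induced folding factor, Herpud1 helps assemble the complex that removes proteins for degradation, and Xbp1 is a transcription factor whose RNA is cut by IRE1.

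Many promoters of this family carry the ER stress response element (ERSE), which reads CCAAT, then 9 bases of any kind, then CCACG, and was searched on both strands in the RefSeq promoters of GRCm38.p6, from 250 bases before to 50 bases after each start. It occurred in 39 of 32851 promoters (0.119%) and in 5 of the 10 genes. Herpud1 had the related ERSE-II, which reads ATTGG, any base, then CCACG, and occurred in 12 promoters (0.0365%). The core of a further element, TGACGTG, occurred in 661 promoters (2.01%) and in Hspa5 alone of the 10 genes. With any base allowed in the last place of ERSE, 120 promoters (0.365%) and 7 of the 10 genes matched, the added ones being Pdia4 and Herpud1. These letters were not in the windows of Dnajb9, Sdf2l1 and Xbp1. The sequences below are shown because 7 of the 10 genes, though not all, matched one of these elements. Each is written 5′ to 3′ on the strand that carries the element with 5 bases on each side, and capitals mark the fixed letters.
Hspa5: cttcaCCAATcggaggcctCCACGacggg
Hsp90b1 (far copy): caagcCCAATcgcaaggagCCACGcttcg
Hsp90b1 (near copy): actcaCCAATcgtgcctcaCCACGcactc
Dnajc3: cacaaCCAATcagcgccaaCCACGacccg
Creld2: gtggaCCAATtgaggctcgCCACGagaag
Calr: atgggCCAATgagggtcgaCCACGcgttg
Herpud1 (ERSE-II): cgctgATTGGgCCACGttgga
Pdia4 (last base differs): gaccaCCAATcacgggctgCCACtcggtt

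The Hspa5 element lay at chr2:34772025-34772043, 65 to 47 bases before the RefSeq start and inside the deposited gene span, and its TGACGTG lay at chr2:34771933-34771939. The far copy of Hsp90b1 lay at chr10:86705638-86705656 and the near copy at chr10:86705533-86705551, on opposite strands. The element of Dnajc3 lay at chr14:118937827-118937845, that of Creld2 at chr15:88819520-88819538, and that of Calr at chr8:84847075-84847093. The ERSE-II of Herpud1 lay at chr8:94386377-94386387, 52 to 42 bases before its start, and the incomplete match of Pdia4 at chr6:47813602-47813620. Dnajc3 and Herpud1 had the smallest p of the called genes in each direction after injury, as described below, and both carry an element. Their 250 bases before the start are shown whole for this reason, from chr14:118937682-118937931 and chr8:94386179-94386428, both on the plus strand, with the element in capitals.
Dnajc3: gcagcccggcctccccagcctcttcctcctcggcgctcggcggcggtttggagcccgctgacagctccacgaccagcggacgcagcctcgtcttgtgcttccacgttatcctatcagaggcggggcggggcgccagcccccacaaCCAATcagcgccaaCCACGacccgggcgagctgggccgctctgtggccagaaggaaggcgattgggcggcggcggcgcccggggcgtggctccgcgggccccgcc
Herpud1: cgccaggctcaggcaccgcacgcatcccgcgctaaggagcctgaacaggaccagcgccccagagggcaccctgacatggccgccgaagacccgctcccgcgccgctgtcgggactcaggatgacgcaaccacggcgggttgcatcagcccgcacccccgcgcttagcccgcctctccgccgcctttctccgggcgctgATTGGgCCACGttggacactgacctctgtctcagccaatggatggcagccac

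Library depth was 1.88 to 36.3 M counted reads in DTR_PBS, 2.39 to 37.8 M in DTR_PYR, 7.24 to 15.3 M in WT_PYR and 3.73 to 34.9 M in WT_PBS. On the first principal component, which held 44.2% of the variance, 3 injured libraries (DTR_PYR 4, 5 and 6, at -35.4 to -20.9) stood next to the 12 WT libraries (-57.2 to -35.1), while the other 9 DTR libraries lay at 30.3 to 113.7. Summed markers of macrophages were 789.6 to 2565.8 CPM (counts scaled to library size) in DTR_PBS and 278.9 to 405.8 CPM in WT_PBS, and all 12 markers rose. Summed activated fibroblast markers were 4038.1 to 9998.4 CPM in DTR_PBS and 780.9 to 1504.7 CPM in WT_PBS, and 11 of 12 rose. Cardiomyocyte markers summed to 31652.2 to 87314.2 CPM in DTR_PBS and 113604.5 to 127513.7 CPM in WT_PBS, with 8 of 12 lower. Endothelial markers summed to 725.1 to 954.5 CPM in DTR_PBS and 1138.0 to 1542.7 CPM in WT_PBS, with 6 of 10 lower. Plasma and B cell markers summed to 31.5 to 88.6 CPM in DTR_PBS and 18.1 to 31.6 CPM in WT_PBS. Of the 8 tested, 1 was higher, Sdc1, which averaged 50.1 CPM in DTR_PBS and 9.17 CPM in WT_PBS and so made up most of the higher sum. Ighm was lower, and the median log2 fold change of the 8 was -0.25. In such bulk tissue, a change in the number of cells of a type and a change in RNA per cell cannot be told apart, and the part of these marker shifts in the results below was not tested.

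On a per-length scale, RPKM, which divides the scaled count by the exon length of the gene, the family fell into abundant and scarce members. In DTR_PBS hearts the mean level was 132.9 RPKM for Calr and 108.1 for Hspa5, with overlapping ranges, and every Hspa5 value lay above every Herpud1 value, whose mean was 48.1 RPKM. Herpud1 overlapped Hsp90b1 at 42.6 RPKM, and Pdia4 at 25.5, Xbp1 at 25.1, Creld2 at 16.9, Sdf2l1 at 16.1, Dnajc3 at 12.5 and Dnajb9 at 11.9 RPKM followed in steps whose ranges overlapped. In WT_PBS hearts Herpud1 came first at 116.8 RPKM, overlapping Calr at 112.3 and Hspa5 at 91.3 RPKM, and the lowest Hspa5 value lay above every Hsp90b1 value, whose mean was 30.5 RPKM. The scarcer genes again followed with overlapping ranges, namely Xbp1 at 19.3, Pdia4 at 13.4, Creld2 at 12.0, Dnajb9 at 9.62, Sdf2l1 at 8.56 and Dnajc3 at 6.20 RPKM. Hspa5 and Calr together made up 58.5% to 61.3% of the summed CPM of the 10 genes in DTR_PBS libraries and 47.9% to 62% in WT_PBS libraries.

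**Figure D1:**
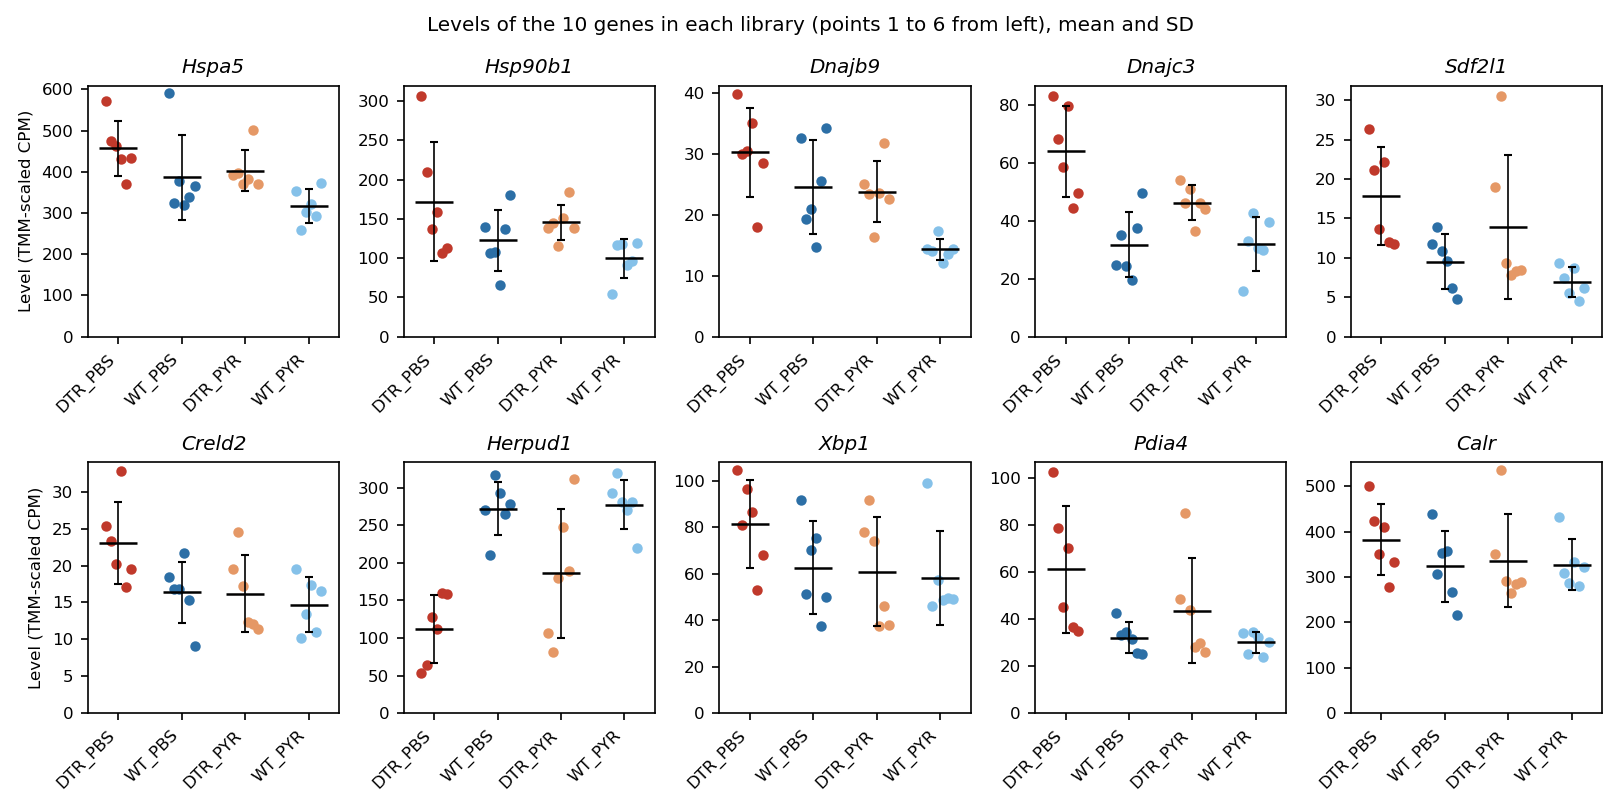
Level of each of the 10 genes in TMM-scaled CPM (vertical axes, starting at 0) in the 4 groups, 1 point per heart, with bars for the mean and SD of 6 hearts. Herpud1 lies at 53.1 to 159.4 CPM in DTR_PBS and at 210.8 to 316.9 CPM in WT_PBS with no overlap, while the ranges of the other 9 genes overlap between these groups.

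After injury under PBS, calls among these genes went in both directions, at close to the share of all genes. In DTR_PBS hearts Dnajc3, Pdia4 and Sdf2l1 were about doubled relative to WT_PBS hearts, Herpud1 fell by more than that, and the most abundant chaperones, Hspa5 and Calr, did not pass the test. By edgeR's quasi-likelihood test with Benjamini-Hochberg adjustment over all 15456 genes tested, 3 of the 10 genes rose and 1 fell, at adjusted p under 0.05. Of all genes tested, 42.9% were called in this comparison, 21.3% up and 21.6% down, so 4 of 10 is close to the background share. Their median log2 fold change was 0.43, beside 0.01 for all genes tested, whose middle 50% ran from -0.51 to 0.55. Scaled by total count in place of TMM, the median of all genes moved to 0.39, 5705 genes were called up and 1756 down (against 3293 and 3341), and 9 of the 10 genes were called up, with a median of 0.80, and Herpud1 down.

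Among the general chaperones, Hspa5 (ENSMUSG00000026864, GRCm38 chr2:34771970-34777547, plus strand) ranged from 369.7 to 572.3 CPM with a median of 447.9 in DTR_PBS, against 319.3 to 591.6 CPM with a median of 352.3 in WT_PBS. The ranges overlapped, and 1 WT_PBS heart, replicate 1, had the highest value of both groups. The log2 fold change was 0.24 ± 0.15 (SE, adjusted p = 0.205), and without that heart it was 0.41 with an adjusted p of 0.0202. Hsp90b1 (ENSMUSG00000020048, chr10:86690209-86705509, minus strand) had 106.1, 147.6 and 306.7 CPM as lowest, median and highest in DTR_PBS and 65.7, 122.4 and 180.6 CPM in WT_PBS. Only DTR_PBS 1 and 2 exceeded all WT_PBS hearts, and the log2 fold change was 0.49 ± 0.24 (adjusted p = 0.107), or 0.63 with an adjusted p of 0.0408 without WT_PBS 6. Counting did not use strand, and 415 exonic bases of Hsp90b1 are shared with the pseudogene 1810014B01Rik on the other strand, so reads there cannot be assigned.

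Calr (ENSMUSG00000003814, chr8:84841850-84846934, minus strand) had 278.8, 379.8 and 500.9 CPM in DTR_PBS and 216.7, 329.9 and 439.4 CPM in WT_PBS. These ranges overlapped over most of their length, the log2 fold change was 0.24 ± 0.19 (adjusted p = 0.313), and reads may also be split with its processed pseudogene Calr-ps.

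Of the cochaperones of Hspa5, Dnajc3 and Sdf2l1 were called and Dnajb9 was not, and differences between these genes were not tested. Dnajc3 (ENSMUSG00000022136, chr14:118937932-118981702, plus strand), which also inhibits the kinase PERK, had 44.5, 63.6 and 83.3 CPM in DTR_PBS and 19.7, 29.9 and 49.6 CPM in WT_PBS. Only the lowest DTR_PBS heart lay inside the WT_PBS range, and Dnajc3 rose 2.01-fold (log2 1.01 ± 0.22, adjusted p = 0.000742). Sdf2l1 (ENSMUSG00000022769, chr16:17130138-17132383, minus strand) had 11.7, 17.4 and 26.3 CPM in DTR_PBS and 4.72, 10.2 and 13.9 CPM in WT_PBS. Here 3 of 6 DTR_PBS hearts were above all WT_PBS hearts, and Sdf2l1 rose 1.90-fold (log2 0.92 ± 0.32, adjusted p = 0.0227). That call was lost without DTR_PBS 1 (adjusted p = 0.0716), WT_PBS 5 (0.0515) or WT_PBS 6 (0.056), and Sdf2l1 had only 24 to 1225 reads per library. Dnajb9 (ENSMUSG00000014905, chr12:44205897-44210068, minus strand), whose protein holds IRE1 inactive, had 18.0, 30.2 and 39.7 CPM in DTR_PBS and 14.7, 23.2 and 34.2 CPM in WT_PBS. Its ranges overlapped almost fully, with a log2 fold change of 0.29 ± 0.20 (adjusted p = 0.235).

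Of the remaining folding genes, Pdia4 (ENSMUSG00000025823, chr6:47796142-47813512, minus strand) had 35.0, 57.5 and 102.5 CPM in DTR_PBS and 25, 32.4 and 42.7 CPM in WT_PBS. DTR_PBS 1 to 4 lay above every WT_PBS heart, and Pdia4 rose 1.91-fold (log2 0.93 ± 0.27, adjusted p = 0.00637). Creld2 (ENSMUSG00000023272, chr15:88819646-88826681, plus strand) had 17.1, 21.7 and 32.8 CPM in DTR_PBS and 9.13, 16.8 and 21.7 CPM in WT_PBS. Its log2 fold change of 0.48 ± 0.22 did not pass (adjusted p = 0.0795). It passed in 4 of the 23 alternatives, at 0.58 without WT_PBS 4 (adjusted p = 0.0456), 0.69 among U hearts (0.0423), 0.67 with the tag letter as a term (0.00279) and 0.85 with total-count scaling (0.00944).

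Herpud1 (ENSMUSG00000031770, chr8:94386438-94395377, plus strand) went the other way. It had 53.1, 119.5 and 159.4 CPM in DTR_PBS and 210.8, 274.5 and 316.9 CPM in WT_PBS. Every DTR_PBS heart lay below every WT_PBS heart, an ordering seen for 11.0% of all genes tested, and Herpud1 was 2.43-fold lower (log2 -1.28 ± 0.27, adjusted p = 0.000513). The call and direction held in all 23 alternatives run for this comparison, with log2 values of -1.66 to -0.97. Xbp1 (ENSMUSG00000020484, chr11:5520659-5525893, plus strand) had 52.9, 83.7 and 104.6 CPM in DTR_PBS and 37.7, 60.7 and 91.8 CPM in WT_PBS. The ranges overlapped and the log2 fold change was 0.37 ± 0.25 (adjusted p = 0.229), and a gene count does not show how much Xbp1 RNA was cut by IRE1.

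**Figure D2:**
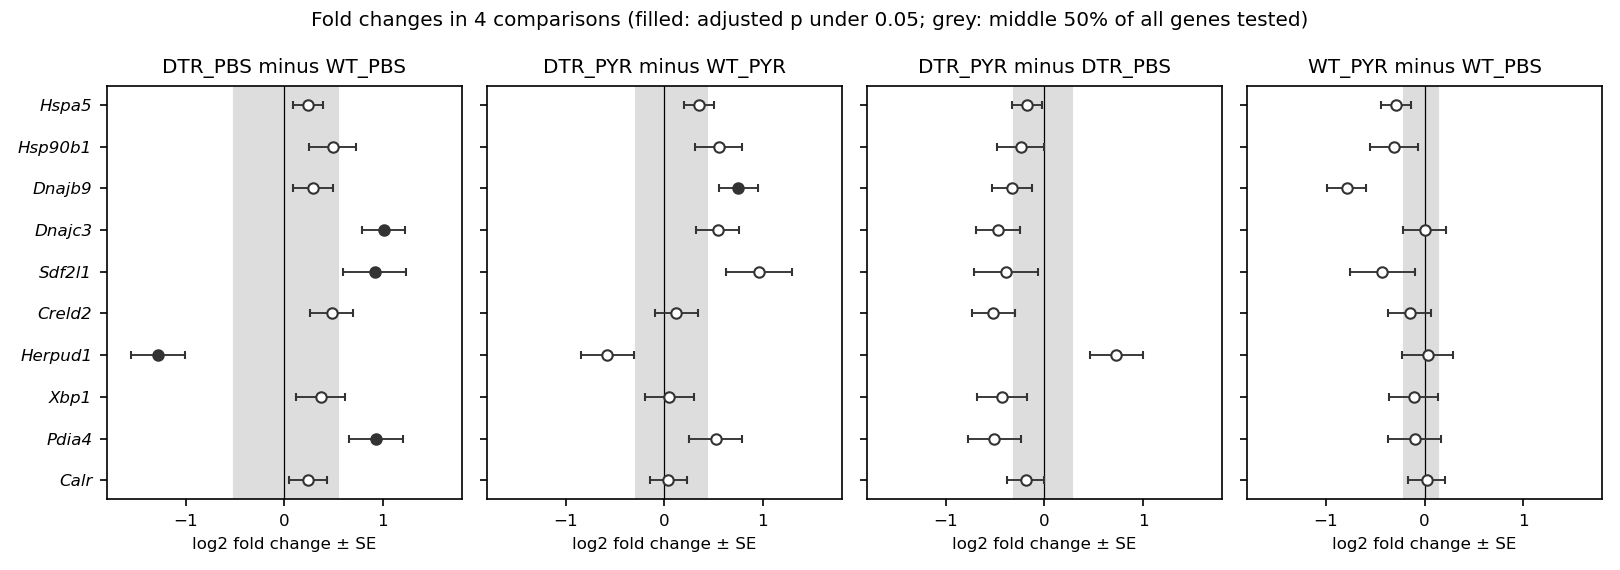
Log2 fold change and SE (horizontal axes) of the 10 genes in 4 comparisons, filled where the adjusted p is under 0.05, with the middle 50% of all genes tested in grey. Under PBS, Dnajc3, Sdf2l1 and Pdia4 are filled on the right and Herpud1 on the left at -1.28, under PYR Dnajb9 is the only filled gene, and no gene is filled in either comparison of PYR with PBS.

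Animal tags in the labels end in U or V, with a meaning that is not given, and injured groups held 2 U and 4 V hearts each while uninjured groups held 4 U and 2 V. Among U hearts, the DTR_PBS to WT_PBS log2 fold change was -1.66 for Herpud1, 1.52 for Dnajc3, 1.41 for Pdia4 and 1.27 for Sdf2l1, all called. Among V hearts it was -1.19 for Herpud1, still called (adjusted p = 0.02), while Dnajc3 at 0.63 (adjusted p = 0.123), Pdia4 at 0.76 (0.128) and Sdf2l1 at 0.98 (0.0686) were not. Hsp90b1 was at 1.09 among U and 0.02 among V hearts, and Dnajb9 at 0.73 among U and -0.00 among V hearts. In this comparison 40.1% of all genes tested were called among U hearts and 17.3% among V hearts. The difference between U and V hearts was not tested.

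Single injured hearts differed in how many of the genes left the uninjured range. In DTR_PBS 1, 8 of the 10 genes were above all 12 WT hearts of both treatments, beside 30.8% of all genes tested in that heart, Hspa5 and Herpud1 being the exceptions. DTR_PBS 2 had 5 such genes (27.7% of all genes), DTR_PBS 4 had 5 (25%), DTR_PBS 3 had 2 (22.3%), DTR_PBS 6 had 1 (17.4%) and DTR_PBS 5 had 0 (19%). Herpud1 was below all 12 WT hearts in all 6 DTR_PBS hearts, including the one in which no gene was above, while 16% to 27.9% of all genes tested were below them in a single DTR_PBS heart. Dnajc3 was above them in 5 of 6 and Pdia4 in 4 of 6, beside 17.4% to 30.8% of all genes in a single DTR_PBS heart. The share of all genes that did so in as many hearts was not computed, nor was it for Herpud1.

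Injury under PYR gave a smaller set of calls. In DTR_PYR hearts Dnajb9 rose relative to WT_PYR hearts, and it alone of the 10 genes passed the test, with 12.2% of all genes tested called (8.06% up and 4.17% down). The median log2 fold change of the 10 genes was 0.43, beside 0.04 for all genes tested, and 9 of 10 had a value above 0. Total-count scaling called 1880 genes up and 395 down, against 1246 and 645, with 4 of the 10 genes up. Dnajb9 had 16.4, 23.5 and 31.8 CPM in DTR_PYR and 12.1, 14.2 and 17.3 CPM in WT_PYR. All but 1 DTR_PYR heart exceeded all WT_PYR hearts, and the rise was 1.68-fold (log2 0.75 ± 0.20, adjusted p = 0.0182). The Dnajb9 mean was 23.8 ± 4.95 CPM in DTR_PYR and 14.3 ± 1.71 CPM in WT_PYR, and 30.3 ± 7.28 CPM in DTR_PBS and 24.5 ± 7.72 CPM in WT_PBS (SD, n = 6 each), so WT_PYR was the lowest of the 4 groups. Whether injury moved Dnajb9 differently under PYR and PBS was tested by the interaction, which was 0.45 ± 0.28 (adjusted p = 0.671).

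The genes called under PBS had wide ranges in DTR_PYR. Herpud1 had 106.3, 80.8, 179.7, 247.3, 189.9 and 312.3 CPM in DTR_PYR 1 to 6, against 219.4 to 320.4 CPM with a median of 281.7 in WT_PYR. DTR_PYR 1, 2, 3 and 5 were below all WT hearts, and 4 and 6 were inside their range. The log2 fold change was -0.58 ± 0.27 (adjusted p = 0.146), called in 4 of the 24 alternatives, among them -0.79 with an adjusted p of 0.0439 without DTR_PYR 6. Pdia4 had 48.6, 85.2, 43.7, 28.2, 30.0 and 25.9 CPM in DTR_PYR 1 to 6, against 23.9 to 34.4 CPM with a median of 31.3 in WT_PYR. DTR_PYR 1 to 3 were above and DTR_PYR 4 to 6 inside the WT_PYR range, and the log2 fold change was 0.52 ± 0.27 (adjusted p = 0.193).

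Sdf2l1 had 19.0, 30.5, 9.36, 7.78, 8.27 and 8.49 CPM in DTR_PYR 1 to 6, against 4.53 to 9.38 CPM in WT_PYR. DTR_PYR 1 and 2 stood above the WT_PYR range and the other 4 lay inside it, and the log2 fold change was 0.96 ± 0.33 (adjusted p = 0.0536), called in 10 of the 24 alternatives run. Dnajc3 had 36.4, 46.2 and 54.0 CPM in DTR_PYR and 15.8, 31.8 and 42.6 CPM in WT_PYR, with a log2 fold change of 0.54 ± 0.22 (adjusted p = 0.104). The other genes had log2 fold changes of 0.04 (Calr) to 0.55 (Hsp90b1) and adjusted p of 0.128 to 0.919.

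Without DTR_PYR 4, 5 and 6, the libraries that stood near the WT hearts, Sdf2l1 was at 1.5 (adjusted p = 0.00167), Pdia4 at 0.98 (0.00888) and Herpud1 at -1.19 (0.00313), and Dnajb9 was no longer called (0.61, adjusted p = 0.0592). Leaving these libraries out selects hearts by their profile, so larger values are built into that choice. Summed macrophage markers were 850.2 to 2477.1 CPM in DTR_PYR 1 to 3 and 386.9 to 410.8 CPM in DTR_PYR 4 to 6, against 242.5 to 426.0 CPM in WT_PYR. Summed cardiomyocyte markers were 46568.0 to 85580.3 CPM in DTR_PYR 1 to 3 and 92451.8 to 105943.1 CPM in DTR_PYR 4 to 6, against 111940.1 to 125258.7 CPM in WT_PYR. Within tag letters, Dnajb9 was at 0.85 among U hearts (adjusted p = 0.0264) and 0.60 among V hearts (adjusted p = 0.966). Of all genes tested, 29.7% were called among U hearts and 0 among V hearts.

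**Figure D3:**
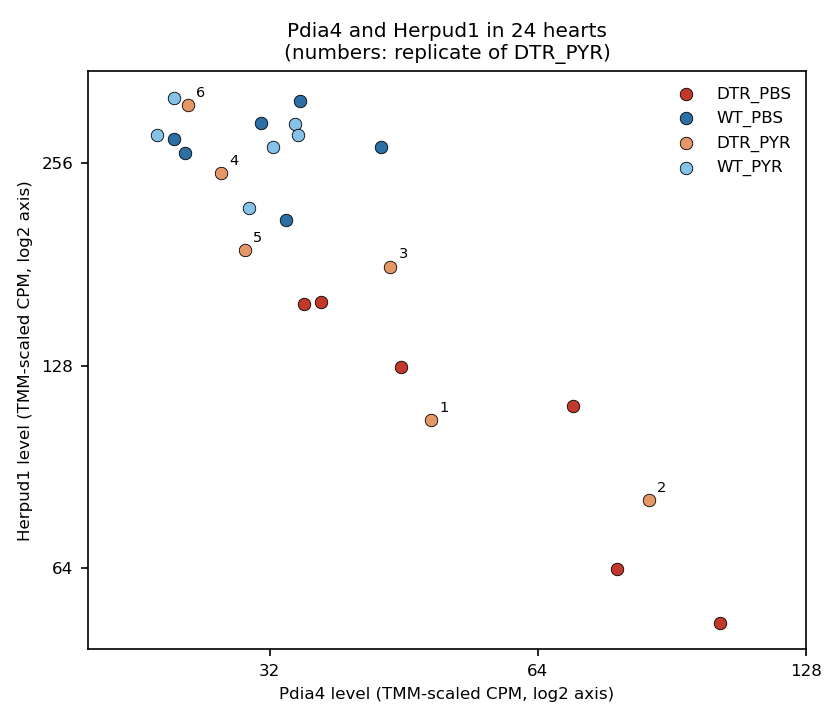
Level of Herpud1 (vertical axis) against Pdia4 (horizontal axis) in each of the 24 hearts, both in TMM-scaled CPM on log2 axes, with DTR_PYR hearts numbered by replicate. The DTR_PBS hearts and DTR_PYR 1 to 3 have more Pdia4 and less Herpud1 than most WT hearts, and DTR_PYR 4 to 6 lie at 25.9 to 30.0 CPM of Pdia4, inside the range of the WT hearts.

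The effect of the drug itself was compared within injured and within uninjured hearts. No member was called in injured hearts by edgeR, where 0 of 15456 genes were called (0%), 2991 genes (19.4%) had an unadjusted p under 0.05, and DESeq2 called 242 genes and limma voom 1765, none of them among the 10. The values of DTR_PYR relative to DTR_PBS were below 0 for 9 of the 10 genes, with a median log2 fold change of -0.36, beside -0.01 for all genes tested. Herpud1 was the exception at 0.73 ± 0.27 (adjusted p = 0.162), with 80.8, 184.8 and 312.3 CPM in DTR_PYR and 53.1, 119.5 and 159.4 CPM in DTR_PBS. Creld2 was at -0.52 ± 0.22 (adjusted p = 0.208) and Dnajc3 at -0.47 ± 0.22 (adjusted p = 0.243), these 3 being under 0.05 before adjustment, and the other 7 had adjusted p of 0.29 to 0.593. These counts depended on the hearts kept. Without DTR_PYR 2, edgeR called 2395 of 15352 genes (15.6%). Among them were Herpud1 at 0.89 (adjusted p = 0.0219), Pdia4 at -0.81 (0.028) and Creld2 at -0.67 (0.042). Without DTR_PYR 4, 5 and 6, edgeR called 0 of 15294 genes. Herpud1 was then at 0.12 (adjusted p = 0.922), Pdia4 at -0.05 (0.97) and Creld2 at -0.16 (0.893). DTR_PYR 2 had the highest first principal component value of its group, 104.3. Either choice selects hearts by their profile, so larger or smaller values are built into it. Since injury under each treatment and this comparison share groups, their values are given side by side and are not independent of one another.

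In uninjured hearts edgeR called 0 of 15456 genes (0%), with 481 (3.11%) at an unadjusted p under 0.05, while DESeq2 called 1 gene and limma voom 0, neither among the 10. Dnajb9 had the smallest unadjusted p of the 10 genes, with 12.1, 14.2 and 17.3 CPM in WT_PYR and 14.7, 23.2 and 34.2 CPM in WT_PBS. Only WT_PBS 4 lay inside the WT_PYR range, and the log2 fold change was -0.79 ± 0.20 (adjusted p = 0.998), which is under 0.05 only before the correction over all genes. The other 9 genes lay between -0.43 (Sdf2l1) and 0.03 (Herpud1), with adjusted p of 0.998 to 0.999. The interaction of injury and drug called 0 genes (0%) by edgeR, with 1231 (7.96%) at an unadjusted p under 0.05, none of them among the 10, and DESeq2 called 9 genes and limma voom 0. Herpud1 had the largest interaction value, 0.71 ± 0.37 (adjusted p = 0.641).

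The wider pathway was followed in 7 lists holding 139 other genes, all tested. These lists too were drawn up with earlier results of these data known. Their counts are read against all genes tested, of which 21.3% were called up and 21.6% down under PBS. In DTR_PBS hearts relative to WT_PBS hearts, the PERK-ATF4 arm, which couples slowed protein synthesis to a stress transcription programme, had 8 of 10 genes up and 0 down, with a median log2 fold change of 1.43. Atf4, its central transcription factor, averaged 354.3 ± 82.1 CPM in DTR_PBS and 69.6 ± 5.33 CPM in WT_PBS (SD, n = 6 each), a log2 fold change of 2.35 (adjusted p = 1.12e-05). Ppp1r15a, which restarts protein synthesis, averaged 270.6 CPM in DTR_PBS and 36.5 CPM in WT_PBS (2.89, adjusted p = 1.97e-05). The stress factor Atf3 averaged 364.1 CPM in DTR_PBS and 23.7 CPM in WT_PBS (3.93, adjusted p = 5.13e-05). ATF4 answers to kinases other than PERK too, so this list is not specific to the ER. The pro-apoptotic factor Ddit3 (CHOP) rose by 1.01 (adjusted p = 0.00652), while Trib3 at -0.47 (0.35) and Chac1 at -0.96 (0.0527) did not pass.

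Sensors and their regulators had 7 of 14 genes up and 3 down, with a median of 0.53. Eif2ak3, which encodes PERK itself, averaged 14.2 CPM in DTR_PBS and 8.36 CPM in WT_PBS (log2 0.77, adjusted p = 0.000864), and Creb3, an ER-bound transcription factor, averaged 31.5 CPM in DTR_PBS and 19.0 CPM in WT_PBS (0.73, adjusted p = 0.00077). Eif2s1, the target of PERK, was at 0.82 (adjusted p = 0.00178), whereas Ern1, which encodes IRE1, was at 0.17 and did not pass (0.385). The sensor gene Atf6 was called down (-0.44, adjusted p = 0.0129), as were Wfs1 (-0.55, 0.0217) and Tmbim6 (-0.46, 0.00708). With total-count scaling 0 genes of this list were called down. The translocon, signal peptidase and glycosylation list had 14 of 27 up and 0 down (median 0.43). Of its genes Sec61a1, the channel subunit, averaged 119.6 CPM in DTR_PBS and 51.2 CPM in WT_PBS (log2 1.22, adjusted p = 0.000529), and Sec61b (1.27, 0.00102) and Ssr1 (1.03, 0.000315) rose with it.

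Disulfide isomerases and oxidases other than Pdia4 had 7 of 16 up and 0 down (median 0.48), led by Qsox1 (log2 1.15, adjusted p = 0.000154), Txndc5 (0.94, 0.000723) and Pdia3 (0.76, 0.00734). ER-to-Golgi traffic had 7 of 20 up and 3 down (median 0.35), with Tmed9 at 0.64 (0.000349), and the retrieval receptors Kdelr3 at 1.75 (0.00074) and Kdelr2 at 0.99 (0.000959). The list of other chaperones and folding factors had 4 of 25 up and 4 down (median 0.13), in all 32% called, beside 42.9% of all genes. There the calcium-binding Rcn3 rose by 1.44 (0.000518), while Creld1, the paralogue of Creld2, was at -0.88 (0.000416) and Cdnf at -1.60 (0.000849), both called down.

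ER-associated degradation, the pathway of Herpud1, had 6 of 27 up and 5 down (median 0.01), in all 40.7% called and thus near the 42.9% of all genes. Edem1, which marks glycoproteins for removal, averaged 42.2 ± 23.7 CPM in DTR_PBS and 13.9 ± 2.78 CPM in WT_PBS (SD, n = 6 each), with a log2 fold change of 1.61 (adjusted p = 0.0011). Ubxn4 rose by 0.96 (5.88e-05), and the ligase March6 was lower, at -0.72 (0.00309). Of the direct partners of Herpud1 in the retrotranslocation complex, Sel1l was at -0.41 (adjusted p = 0.0101) and the ligase Syvn1 at 0.22 (0.361), which did not pass. On the total-count scale Sel1l was at -0.03, March6 at -0.35 and Vcp, -0.34 with TMM, at 0.02, so that 14 genes of this list were called up and 0 down. The other lists also had more calls up on that scale, with 14 up and 2 down for the chaperones, 10 and 0 for the sensors, and 17 and 1 for ER-to-Golgi traffic. It gave 25 of 27 up for the translocon list and 13 of 16 up for the disulfide isomerases, with 0 down in each, and left the PERK-ATF4 arm at 8 up and 0 down. Of all 15456 genes tested, that scale called 5705 up and 1756 down. Under PYR injury, the PERK-ATF4 arm had 4 of 10 genes up (median 0.70), beside 8.06% up and 4.17% down of all genes tested. The degradation and translocon lists had 3 of 27 up each, ER-to-Golgi traffic 2 of 20 and the other 3 lists 1 each. Outside the PERK-ATF4 arm these counts were close to the share of all genes, and 1 gene, Creld1, was called down. In the drug comparisons and the interaction, 0 genes of any of the 7 lists were called by edgeR, where 0 of all genes were.

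**Figure D4:**
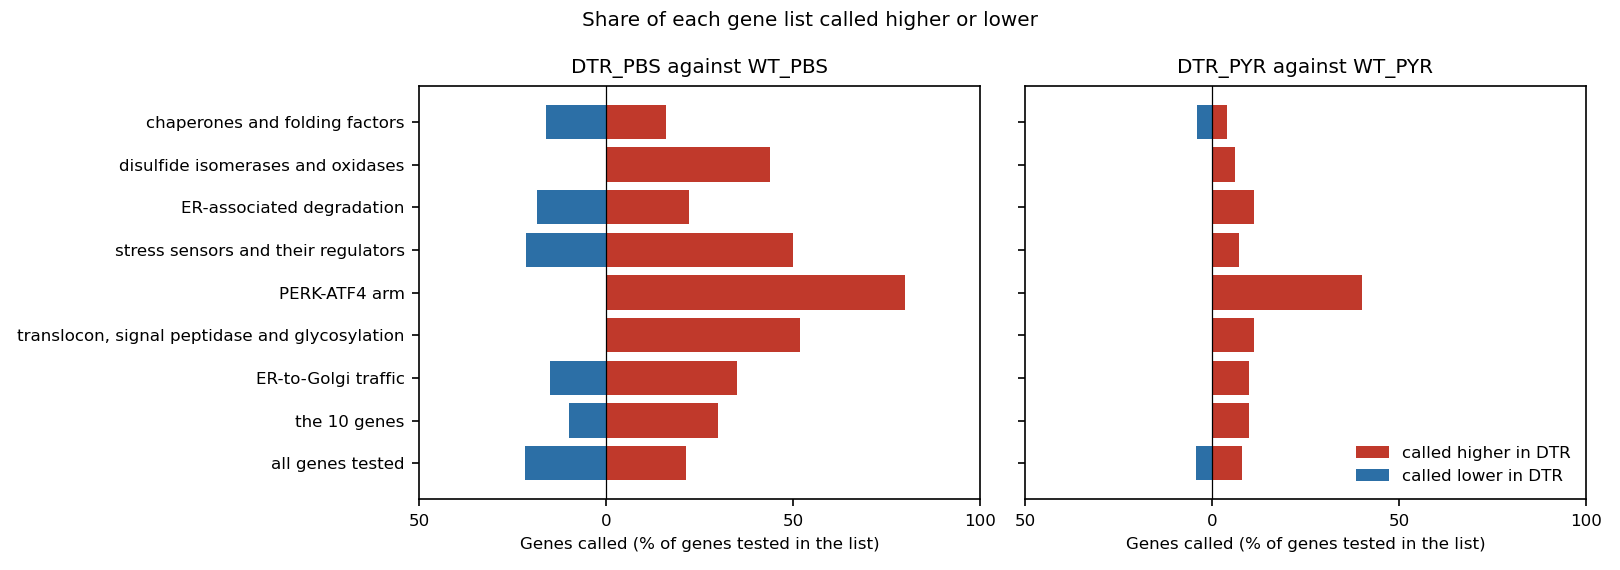
Share of the tested genes of each list called up (to the right) or down (to the left) after injury, in percent, under PBS and under PYR, with TMM scaling (with total-count scaling 0 genes of the degradation and sensor lists are called down under PBS). The PERK-ATF4 arm has the longest bar of the 7 pathway lists under PBS, at 80% up and none down, beside 42.9% of all genes called in either direction.

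Called and uncalled genes after injury under PBS were found both with and without a full ERSE, and a link between element and value was not tested. Among the carriers of a full ERSE, Dnajc3 rose at 1.01 while Hspa5 (0.24), Hsp90b1 (0.49), Creld2 (0.48) and Calr (0.24) did not pass, and the called genes Sdf2l1 and Pdia4 carried no full ERSE in the window searched. Herpud1, the only gene of the 10 with ERSE-II, fell. With any base allowed in the last place of ERSE, Pdia4 and Herpud1 matched as well. Of all 37 genes with an ERSE match, 16 were tested, with a median log2 fold change of 0.23. Of these, 3 were called up (Dnajc3, Pdia6 and Hnrnpa3) and 2 down (Spats2l and Acacb), beside 21.3% up and 21.6% down of all genes tested. Without the members, 11 were tested, 2 up and 2 down, with a median of 0.05. A match in the letters describes the sequence and shows no binding of a factor.

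By the root mean square difference of centred log2 CPM over the 24 hearts, the genes outside the 10 closest to their mean profile were Nsf and Ywhah (0.142 each), Chtop and Dnajb11 (0.143 each), Cct2 and Capn2 (0.145 each), and Kpnb1 and Mcfd2 (0.148 each). The median over the 10196 genes compared was 0.501. The 10 genes themselves ran from 0.179 for Hspa5 to 0.990 for Herpud1, all farther than the outside genes just named. Herpud1, and by little Sdf2l1 at 0.504, lay farther from the mean profile than the median gene did. The outside genes named were picked as the nearest of all compared. Each of the 10 genes is itself part of the mean profile, which draws it closer. These distances therefore do not compare the 10 genes with other genes on equal terms. Dnajb11, another Hspa5 cochaperone, had a log2 fold change of 0.19 after injury under PBS (adjusted p = 0.237).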

How the data were processed

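Polyadenylated RNA was sequenced from one end without keeping strand. Raw counts per Ensembl gene were taken from the table the authors deposited (46078 genes, 24 libraries); per the submitters' processing notes, the tools were Bowtie2, TopHat, TopHat2 2.1.1, HTSeq, DESeq and edgeR and the build was GRCm38. The labels do not say what each tool did or which annotation was used. The labels give each library its own animal tag; replicate numbers follow accession order and pair nothing.

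The 15456 genes that exceeded 0.5 CPM in 6 or more libraries were scaled by TMM and fitted with edgeR's quasi-likelihood test, with 1 coefficient per group and all 24 libraries. Tests were two-sided, Benjamini-Hochberg adjusted over all genes, and called under 0.05. The script was tested on simulated data with 200 changed genes. CPM values are TMM-scaled. RPKM used the exon length of GENCODE vM21. Log2 CPM for principal components and likeness used a prior count of 2. Likeness was computed over genes averaging 5 CPM or more. Promoters came from RefSeq, and all 10 genes matched an entry. Software was R 4.3.3, edgeR 4.0.16, limma 3.58.1 and DESeq2 1.42.0. Alternatives covered scaling, filters, tests, tag letter and left-out libraries.

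The members and lists were chosen with earlier results of these data known. All 10 members were named in every comparison, with up to 3 called genes of each list by smallest p and the 8 genes of nearest profile. Outside this rule, Ddit3, Trib3, Chac1, Ern1, Atf6, Wfs1, Tmbim6, Sel1l, Syvn1 and Vcp were chosen after their values were seen. So were the genes compared in the closing observations. The deposited filtered and normalised tables were not used.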

Additional observations from a re-analysis of the deposited data

Results flagged for a closer look

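Of the 40 sets of 6 hearts (10 genes in 4 groups), 5 held a heart whose gap to its nearest neighbour, divided by the range of the group, exceeded Dixon's 95% critical value, and chance alone flags about 1 in 20 groups. Hspa5 was at 502.1 CPM in DTR_PYR 5, far above the other DTR_PYR hearts, and at 591.6 CPM in WT_PBS 1, far above the other WT_PBS hearts. The heart WT_PYR 1 stood apart for 3 genes, with Hsp90b1 low at 54.5 CPM, Dnajc3 low at 15.8 CPM and Xbp1 high at 99.0 CPM.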

How the results depend on the processing

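No paired analysis was possible because replicate numbers follow accession order and pair no hearts. No called value of the 10 genes changed sign under any alternative run. Members called up after injury under PBS, 3 as reported, numbered 9 with total-count scaling, 6 among U hearts, 0 among V hearts, and 2 to 4 with each heart left out in turn. Members called up after injury under PYR, 1 as reported, numbered 4 with total-count scaling and 3 among U hearts. They numbered 2 without mitochondrially encoded genes, with the filter of 13 libraries, by the DESeq2 Wald test, with tag letter as a term, and without DTR_PYR 4, 5 and 6, 0 among V hearts, and 1 to 2 with each heart left out. Members called down after injury under PYR, 0 as reported, numbered 1 with tag letter as a term, among U hearts and without DTR_PYR 4, 5 and 6, and 0 to 1 with each heart left out. For PYR in injured hearts, 0 as reported, leaving out each heart gave 0 to 1 up and 0 to 2 down. The causes of these differences were not tested. The U, V and left-out fits also held fewer hearts. Total-count scaling called 5705 genes up and 1756 down under PBS, against 3293 and 3341 with TMM. Under PYR, 1891 genes were called as reported, 787 by limma voom, 1232 without a filter, 1254 with only the groups compared, 2920 with tag letter as a term, 4218 among U hearts, 0 among V hearts, 5043 without DTR_PYR 4, 5 and 6, and 748 to 2707 with each heart left out. Under PBS, 5683 of 14182 genes (40.1%) were called among U hearts and 2463 of 14232 (17.3%) among V hearts. Among V hearts 609 were called for PYR in injured hearts. Depth limits Sdf2l1, at 24 reads in its lowest library.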

Other observations

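Close relatives in the wider pathway took different values after injury under PBS (DTR_PBS relative to WT_PBS, edgeR's quasi-likelihood test, adjusted over all genes). These genes were chosen after their values were seen, and the differences within pairs were not tested. Of the KDEL receptors, which return escaped chaperones to the ER, Kdelr3 and Kdelr2 rose (1.75 and 0.99 on the log2 scale) and Kdelr1 was lower (-0.50, adjusted p = 0.00294), or at -0.14 with total-count scaling (adjusted p = 0.449). Of the related secreted factors, Manf rose (0.97, adjusted p = 0.00614) and Cdnf fell (-1.60). Of the ATF6 pair, Atf6b rose (0.52, adjusted p = 0.0412) and Atf6 was lower (-0.44, adjusted p = 0.0129), or at -0.07 with total-count scaling.

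The ratio of Pdia4 to Herpud1 within a heart does not depend on library scaling, and it too was chosen after values were seen. Its log2 value was -2.18 to 0.95 in DTR_PBS hearts and -3.48 to -2.66 in WT_PBS hearts, with no overlap. Herpud1 alone already separated these 2 groups, so this separation was largely built into the choice of genes. The share of all gene pairs with such a separation was not computed. It was -3.59 to 0.08 in DTR_PYR hearts and -3.68 to -2.85 in WT_PYR hearts, with DTR_PYR 1 to 3 at -2.04 or above and DTR_PYR 4 to 6 at -2.66 or below. A ratio within a heart shows unequal change, not which gene moved.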
